A study of Mus musculus with 6 samples.

Results

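Hes1, Hes5, Hes6, Hey1, Hey2, Heyl and Nrarp, a set of 7 genes for effectors and modulators of Notch signalling, were followed in the ganglionic eminences of mouse embryos. The ganglionic eminences are the ventral swellings of the embryonic forebrain, whose progenitors give rise to GABAergic interneurons and to neurons of the basal ganglia. The genes were taken by symbol from a deposited table of 55416 genes, in which each symbol had 1 row, and all 7 were among the 23628 genes with enough reads to be tested. There were 3 libraries of wild-type embryos and 3 of littermates that lacked both Dlx1 and Dlx2, homeodomain transcription factor genes of the ventral forebrain, all at E13.5 (embryonic day) and without a treatment. The labels name no strain and no cell type in which the deletion was made, and do not say whether a library is 1 embryo or a pool, so p-values measure only the spread between these libraries. The sample titles name no litter and the labels state no pairing, so differences between litters could not be modelled. Total RNA depleted of ribosomal RNA was sequenced. The title of the study names an axis of DLX factors and Notch, and the question was whether the read-outs of Notch signalling differ without Dlx1 and Dlx2.

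When a Notch receptor meets its ligand on a neighbouring cell, its intracellular part is released, enters the nucleus and joins the DNA-binding protein RBPJ to activate target genes. Hes1 and Hes5 are the classical targets in neural progenitors. They encode basic helix-loop-helix repressors that hold back proneural genes and so keep cells in a progenitor state. Hey1, Hey2 and Heyl encode related repressors that are known for roles in blood vessels and heart as well as in neural progenitors. Hes6 differs from the others: it is known as an antagonist of Hes1, is switched on by proneural factors and favours neuronal differentiation. Nrarp encodes a small ankyrin repeat protein that is induced by Notch and destabilises the complex of the Notch intracellular part with RBPJ, a negative feedback.

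RefSeq promoter entries (build GRCm38.p6, 250 bases before to 50 after a start site) were matched by symbol for Hes5, Hes6, Hey2 and Nrarp, with 2 start sites for Hes6. Hes1, Hey1 and Heyl had no entry. The RBPJ core TGGGAA, searched on both strands, occurred 2 times in the Hes5 promoter and 2 times in the Hey2 promoter, and not in the windows of Nrarp or Hes6. At least 1 match was held by 25.6% of all 32851 promoter entries, and 2 or more by 3.79%. The 4 matches are shown with their flanks, 5′ to 3′ on the strand of the gene, because they are the letters that the Notch complex is known to read. Capitals mark the core, which reads TTCCCA where it lies on the other strand.
Hes5, 226 bases before the start, chr4:154960685-154960714, plus strand: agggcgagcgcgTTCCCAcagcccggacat
Hes5, 82 bases before the start, chr4:154960829-154960858, plus strand: ggccgccgagtgTGGGAAcggccgcggcgc
Hey2, 207 bases before the start, chr10:30842973-30843002, minus strand: tgcgcggtggcaTTCCCAcgcctctgccaa
Hey2, 3 bases before the start, chr10:30842769-30842798, minus strand: tgggctgcagcgTGGGAAagaacctccagg
Both genes thus had 1 match on each strand. The Hey2 match that begins 3 bases before the start runs across that start. Of the 250 upstream bases, 18 for Hey2 and 153 for Hes5 lie in exons of GENCODE M21 gene models.

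The 250 bases upstream of Nrarp and of the Hes6 start site at position 91413222 of chromosome 1 are shown. They were chosen because these genes rose together with Hes5 without its core matches in these windows. Capitals mark E-boxes (CANNTG, its own reverse complement), the class of site that proneural factors are known to bind.
Hes6, chr1:91413223-91413472, minus strand: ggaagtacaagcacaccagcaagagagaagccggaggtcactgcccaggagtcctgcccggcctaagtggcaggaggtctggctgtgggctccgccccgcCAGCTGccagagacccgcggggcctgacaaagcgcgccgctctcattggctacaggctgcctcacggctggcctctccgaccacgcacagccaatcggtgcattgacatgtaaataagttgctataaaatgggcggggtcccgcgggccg
Nrarp, chr2:25180508-25180757, plus strand: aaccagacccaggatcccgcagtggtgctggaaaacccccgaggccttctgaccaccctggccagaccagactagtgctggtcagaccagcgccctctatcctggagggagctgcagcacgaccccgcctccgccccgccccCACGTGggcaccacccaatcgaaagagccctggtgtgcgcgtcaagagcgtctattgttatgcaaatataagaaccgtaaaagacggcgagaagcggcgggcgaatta
E-boxes are common: 72.3% of all promoter entries held at least 1. The other Hes6 start site, at position 91414038 of chromosome 1, had 3 E-boxes in its window. The homeodomain core TAATTA, searched on both strands and present in 5.29% of all entries, was in none of the 5 windows. The N-box CACNAG, a site known for Hes repressors, occurred 2 times each in the Nrarp window and the window of the Hes6 start at 91413222. At least 1 N-box was in 42.5% of all entries. No match of these motifs overlapped a match of another motif in the 5 windows. A match is a string of letters and does not show that a factor binds there.

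Library totals ranged from 56618090 to 70114173 reads. Dlx1 fell from 438.9 ± 6.12 to 81.6 ± 10.8 CPM and Dlx2 from 295.7 ± 16.1 to 8.68 ± 1.99 CPM (SD, n = 3 each), so no library went against its label. CPM is the read count scaled by library size with the TMM method, a trimmed mean of log ratios. The ganglionic eminence markers Nkx2-1, Gsx2 and Lhx6 were present in the wild type at 128.0, 23.5 and 172.0 CPM, and so were the dorsal telencephalic markers Tbr1 and Neurod6, at 310.2 and 203.0 CPM. Several of these markers differed between the genotypes and are described with the marker lists. The labels give no sex, and the sum of 4 Y-linked genes was 207.1 to 213.8 CPM in wild-type replicate 1 and double knockout replicates 2 and 3, and at or under 0.171 CPM in the other libraries. Over all tested genes, 2.68% passed the threshold of 0.05 on the adjusted p of edgeR, with 1.34% higher and 1.34% lower in the double knockout. These were 634 genes. In fits that left out 1 library, 309 to 403 were called without any of the wild-type replicates or double knockout replicate 1 or 2, and 749 without double knockout replicate 3.

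Hes5, Hes6 and Nrarp rose in the double knockout, by 1.60-, 1.66- and 1.53-fold. Hes1, Hey1, Hey2 and Heyl did not pass the test, with estimates between 1.10- and 1.44-fold. Thus 3 of the 7 genes were higher and none was lower, beside 1.34% of all tested genes in each direction. All 7 estimates were above 0, with a median log2 fold change of 0.53, where the median of all tested genes was -0.0016 and 11698 of 23628 estimates were positive. The 3 calls were kept in each of 14 other settings, which included each fit without 1 library. In bulk tissue, more cells of a type and more RNA per cell cannot be told apart.

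Hes5, the target most often used as a read-out of Notch activity in neural progenitors, was at 21.8, 25.6 and 24.7 CPM in wild-type replicates 1 to 3. In the double knockout replicates it was at 35.2, 41.0 and 39.2 CPM. The groups did not overlap, as was the case in the higher direction for 9.3% of all tested genes, and the lowest double knockout library stood well above the highest wild-type library. In edgeR the log2 fold change was 0.68 (SE 0.0849, 95% interval 0.48 to 0.87) at an adjusted p of 0.00401. Exons of Hes5 overlap the gene model Gm20421 on the opposite strand in GENCODE M21. That model held 1 to 14 reads a library, against 1280 to 2717 for Hes5.

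Nrarp, the feedback inhibitor, showed the smallest spread of the set. It was at 8.82, 8.37 and 8.62 CPM in the wild type and at 13.54, 12.7 and 13.2 CPM in the double knockout. The coefficient of variation was 2.64% and 3.10% in the respective groups, and the groups lay far apart relative to that spread. The edgeR fit gave a log2 fold change of 0.61 (SE 0.0804, 95% interval 0.43 to 0.80) and an adjusted p of 0.00517. The opposite-strand model Gm38287, which overlaps an exon of Nrarp, had 0 reads in all 6 libraries.

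Hes6, the differentiation-promoting member, had the highest level and the largest change. It was at 56.4, 63.4 and 62.1 CPM in the wild-type replicates. It was at 98.7, 98.8 and 105.1 CPM in the double knockout replicates, so the groups did not overlap. The log2 fold change by edgeR was 0.73 (SE 0.0578, 95% interval 0.60 to 0.87) at an adjusted p of 3.53e-04. By unadjusted p it ranked 53 among 23628 genes, ahead of Hes5 at 180 and Nrarp at 199. No exon of another gene overlapped Hes6 in GENCODE M21.

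**Figure D1:**
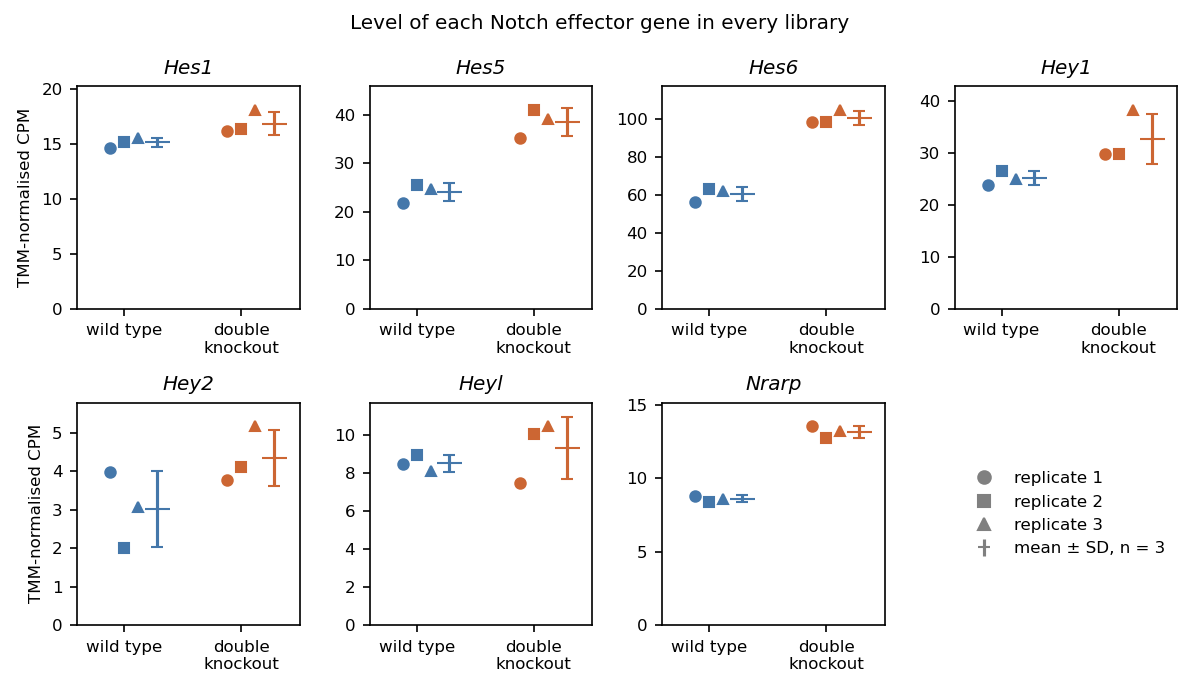
TMM-normalised CPM (y axis, from 0) of the 7 genes in the 3 wild-type (blue) and 3 double knockout (orange) libraries, with symbols for the replicates and bars for mean ± SD. Hes5, Hes6 and Nrarp separate by a wide gap, Hes1 and Hey1 by a narrow gap, and Hey2 and Heyl overlap.

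Hes1, the other classical target, differed little. Its levels were 14.7, 15.2 and 15.5 CPM in the wild type and 16.1, 16.3 and 18.1 CPM in the double knockout. All double knockout libraries were above all wild-type libraries, but by a small margin. The log2 fold change of 0.16 (SE 0.0793) had an adjusted p of 0.467 in edgeR. Its 95% interval, from 0.983- to 1.26-fold, lies below the interval of Hes5, from 1.40- to 1.83-fold.

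Hey1, a Hairy-related repressor of progenitors and vessels, was at 23.7, 26.4 and 25.02 CPM in the wild type. In the double knockout it was at 29.8, 29.8 and 38.3 CPM. The groups did not overlap, and double knockout replicate 3 stood apart from the other 2 libraries of its group. The log2 fold change of 0.38 (SE 0.105, 95% interval 0.14 to 0.62) had an unadjusted p of 0.00616 and an adjusted p of 0.128 in edgeR. It was 0.26 without double knockout replicate 3, with an adjusted p of 0.129 in edgeR. Of the members that missed the threshold, only Hey1 was called in any other setting: the adjusted p was 0.0171 in DESeq2 and 0.0463 in edgeR without a filter on low counts.

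Hey2, known for its part in artery and heart formation, was the least abundant member, with 128 to 233 reads per wild-type library and 236 to 358 per double knockout library. The wild-type levels of 3.98, 1.99 and 3.07 CPM had the largest coefficient of variation of the set, 33.0%, and overlapped the double knockout levels of 3.76, 4.09 and 5.16 CPM. Its edgeR estimate of 0.53 on the log2 scale (SE 0.242) had an adjusted p of 0.401 and a 95% interval from 0.984- to 2.11-fold. The estimate was 0.78 without wild-type replicate 1 and 0.30 without wild-type replicate 2. The interval of Hey2 thus holds the estimate of Hes5 as well as no change.

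Heyl, the third Hairy-related gene, was at 8.50, 8.96 and 8.09 CPM in the wild type and 7.47, 10.1 and 10.5 CPM in the double knockout. Double knockout replicate 1 was the lowest and replicate 3 the highest of the 6 libraries. The log2 fold change of 0.13 (SE 0.135) had an adjusted p of 0.776 in edgeR, with a 95% interval from 0.886- to 1.36-fold. It was 0.27 without double knockout replicate 1 and 0.05 without replicate 3 of that group.

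**Figure D2:**
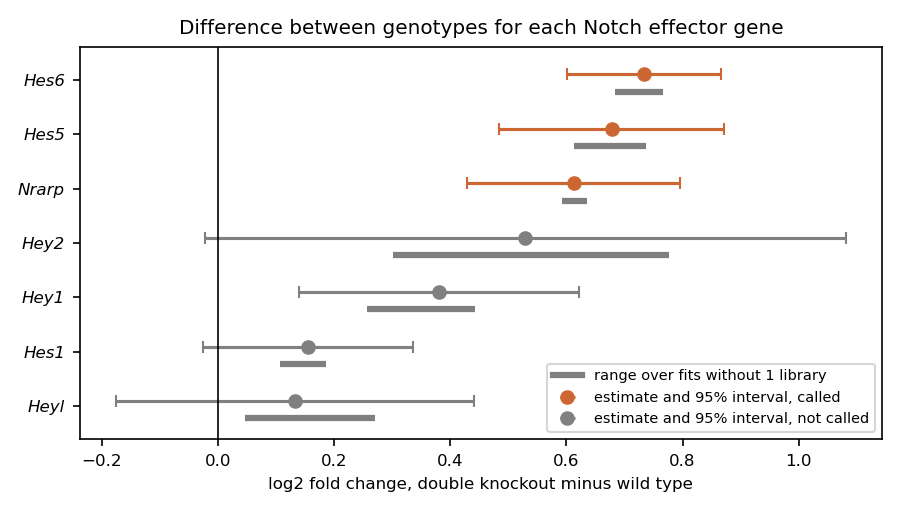
Log2 fold change of each gene (x axis, double knockout minus wild type) with its 95% interval from edgeR, and below each the range of estimates over the 6 fits that leave out 1 library. The intervals of Hes6, Hes5 and Nrarp start at 0.43 or higher, while those of Hey2, Hes1 and Heyl include 0.

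Ratios between members within a library do not depend on how libraries are scaled. There were 1.49, 1.69 and 1.59 reads of Hes5 per read of Hes1 in the wild-type replicates, against 2.18, 2.51 and 2.16 in the double knockout. The groups did not overlap, and the mean log2 ratio was higher by 0.53. With 3 against 3 libraries the two-sided exact permutation test cannot go below 0.1, and gave 0.1 (0.15 after adjustment over 3 ratios). Reads of Heyl per read of Hes5 went the other way, from 0.389, 0.351 and 0.328 to 0.212, 0.246 and 0.267, with an exact permutation p of 0.1 and an adjusted value of 0.15. Reads of Hes6 per read of Hes5 overlapped: the wild type ranged from 2.48 to 2.58 and the double knockout from 2.41 to 2.80, with an exact permutation p of 0.5. The difference of that log2 ratio was 0.06, so Hes6 and Hes5 rose by amounts that were not separated at this spread.

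To compare the genes with each other, levels were divided by exonic length (RPKM, with lengths from GENCODE M21). Hes6 was highest in the wild type at 33.5 ± 2.05 RPKM, followed by Hes5 at 17.6 ± 1.43, Hey1 at 7.68 ± 0.415 and Hes1 at 7.42 ± 0.217 (SD, n = 3). Nrarp at 3.33 ± 0.0878, Heyl at 1.67 ± 0.0852 and Hey2 at 0.656 ± 0.216 RPKM were lower. Neighbours in that order did not overlap, except Hey1 and Hes1, whose wild-type libraries could not be told apart. In the double knockout the order of the means was the same, from 55.8 ± 2.03 RPKM for Hes6 and 28.2 ± 2.16 for Hes5 to 0.944 ± 0.159 for Hey2, and no neighbours overlapped. Hes6 and Hes5 made up 46.6% and 24.5% of the summed RPKM of the 7 genes in the wild type and 50.7% and 25.6% in the double knockout. The share of Hes1 was 10.3% and 7.51%.

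**Figure D3:**
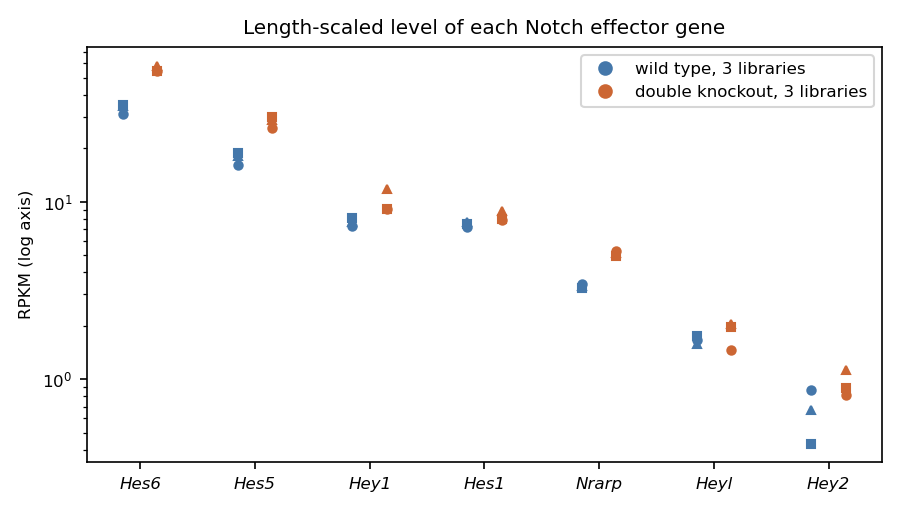
Length-scaled level (RPKM, log axis) of the 7 genes, ordered by their wild-type mean, in each of the 3 wild-type (blue) and 3 double knockout (orange) libraries. Hes6 and Hes5 lead in both genotypes, Hey1 and Hes1 lie together in the wild type, and Hey2 is lowest.

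Markers of other cells were measured beside these changes. Of 10 radial glia markers, the progenitors in which Hes1 and Hes5 act, 1 was called higher: Sox9 rose from 188.9 ± 19.6 to 311.5 ± 38.1 CPM at an edgeR adjusted p of 0.00773. Their summed level was 1979 to 2205 CPM in wild-type libraries and 2444 to 2699 CPM in those of the double knockout, without overlap. The 8 neuronal markers summed to 5913 to 6401 and 4816 to 5598 CPM, also without overlap, and 2 of them, Elavl3 and Snap25, fell. Oligodendrocyte precursor markers rose in 5 of 6 cases, with sums of 77.1 to 78.7 and 143.2 to 185.5 CPM. The 8 markers of dividing cells overlapped, at 1560 to 1833 and 1732 to 2247 CPM, with none called. The 10 ganglionic eminence markers moved in both directions: Nkx2-1, Gsx2 and Isl1 rose, with log2 fold changes of 0.59, 0.64 and 0.62, and 6 fell. Those that fell were the interneuron and cholinergic factors Lhx6 (-0.83) and Lhx8 (-1.22), the GABA synthesis genes Gad1 (-1.47) and Gad2 (-1.38), and Dlx5 (-2.93) and Dlx6 (-2.55). Their sum was 1185 to 1254 CPM in wild-type libraries and 808.0 to 1036 CPM in the others, without overlap. The 8 dorsal telencephalic markers summed to 924.4 to 945.0 and 717.0 to 749.2 CPM, also without overlap. Of these, 1 was called, Neurod2, which fell from 202.4 ± 7.48 to 140.0 ± 6.62 CPM at an edgeR adjusted p of 0.00127. Tbr1 was at 310.2 ± 2.78 and 257.5 ± 27.1 CPM and Neurod6 at 203.0 ± 8.03 and 145.5 ± 30.3 CPM. The part of these shifts in the rise of Hes5, Hes6 and Nrarp was not tested. Ratios of the members to sums of marker lists, added after these sums were seen, are given as a description. Nes and Vim, at 550.1 and 479.4 CPM in the wild type, are the largest terms of the radial glia sum.

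Relative to the summed radial glia markers, Hes5 stood at 1.10% to 1.17% in wild-type libraries against 1.39% to 1.68% without Dlx1 and Dlx2. Hes6 was 2.85% to 2.96% and 3.89% to 4.04%, and Nrarp 0.380% to 0.446% and 0.489% to 0.536%. None of these 3 ranges overlapped between the genotypes, and the ratios differed by 1.31-, 1.36- and 1.25-fold. Hes1 moved the other way on this scale, at 0.688% to 0.741% in wild-type libraries against 0.638% to 0.670%, a 0.911-fold ratio without overlap. For each of these 4 the exact permutation p was 0.1, the smallest possible. Hey1, Hey2 and Heyl overlapped on this scale, with exact permutation p of 0.4, 0.6 and 0.5. Relative to the summed markers of dividing cells, Hes1 overlapped, at 0.827% to 0.939% and 0.805% to 0.941% (exact permutation p 0.9). Its fall thus depended on the sum chosen. Hes5, Hes6 and Nrarp were higher without overlap relative to that sum too, and so was Hey1, by 1.16-fold (exact permutation p 0.1 each). Hey2 and Heyl overlapped. In CPM, 9.3% of all tested genes were higher without overlap. The share of all tested genes on the scales of these sums was not computed, so the ranges without overlap have no base rate beside them.

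**Figure D4:**
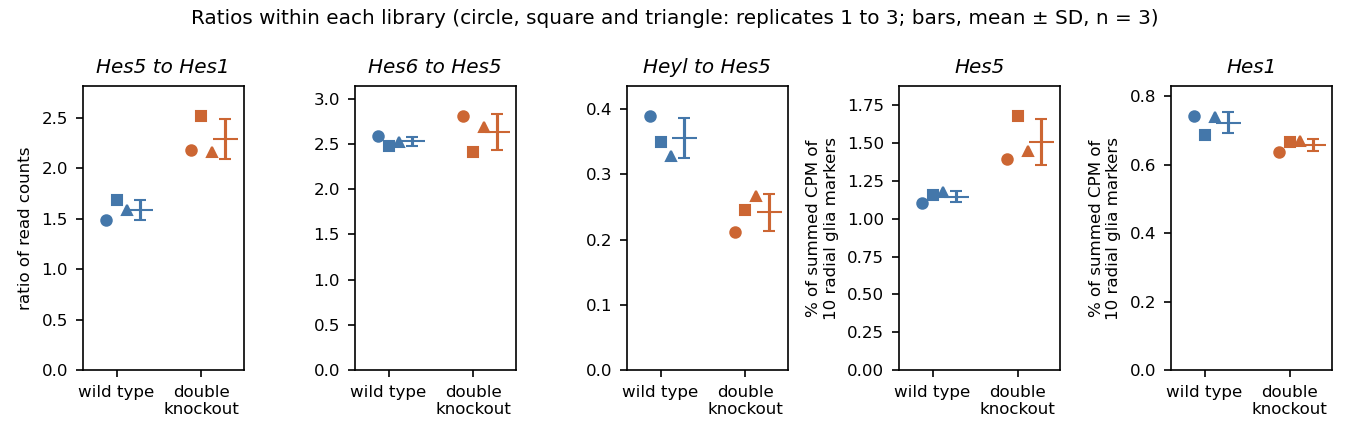
Ratios within each library for wild type (blue) and double knockout (orange), with mean ± SD: reads of Hes5 per read of Hes1, of Hes6 per read of Hes5 and of Heyl per read of Hes5, then Hes5 and Hes1 as a percentage of the summed CPM of 10 radial glia markers. Hes5 is higher relative to Hes1 and to the radial glia markers in every double knockout library, while Hes6 to Hes5 overlaps.

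The Hey genes and Nrarp are also known from vessels, so vascular markers were examined. None of the 10 endothelial and none of the 8 mural markers was called in either direction. The endothelial sum ranged over 142.8 to 162.6 CPM in wild-type libraries and 149.3 to 174.5 CPM in the others, and the mural sum 90.1 to 106.9 and 95.8 to 111.5 CPM. Both overlapped. Relative to the endothelial sum, Nrarp stood at 5.43% to 5.86% in wild-type libraries and at 7.57% to 9.07% in those of the double knockout. Hey1, at 14.6% to 18.5% and 19.2% to 21.9%, and Hey2, at 1.39% to 2.45% and 2.52% to 2.96%, were also higher without overlap. The exact permutation p was 0.1, the smallest possible, for each of these 3. Heyl overlapped on that scale, at 5.10% to 6.28% and 5.01% to 6.50%. Relative to the mural sum, Nrarp, Hey1 and Hey2 did not overlap between the genotypes and Heyl did. For these sums too, the share of all tested genes without overlap was not computed. Such ratios were not particular to these genes. Hes5 and Hes6 were also higher without overlap relative to both sums, by 1.55- and 1.61-fold for the endothelial sum, while Hes1 overlapped. In CPM, without this division, Hey2 overlapped between the genotypes, with an edgeR adjusted p of 0.401. Microglial and blood markers overlapped as well, with none called. In the meningeal list, 1 of 7 genes was called, Pdgfra, which oligodendrocyte precursors also express.

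Upstream of the effectors, 7 of 12 receptor and ligand genes rose and none fell. Dlk1, Dll3, Dll1 and Notch1 had the largest changes, with log2 fold changes of 1.42, 0.79, 0.71 and 0.59. Dlk1 encodes a ligand-like protein, Dll3 and Dll1 encode Delta-type proteins, and Notch1 is the main receptor of neural progenitors. Whether the products of these genes activated or inhibited the receptor in this tissue was not tested. Of 16 genes for the processing of receptors and ligands, 1 rose: Lfng, a glycosyltransferase that tunes the receptor, with a log2 fold change of 0.67. Among 16 genes of the nuclear complex and its co-repressors, 3 rose, among them Maml2 with a log2 fold change of 0.56 and Rbpj, the DNA-binding partner itself, at 0.33. Rbpj was at 123.3, 126.1 and 130.4 CPM in the wild type and 173.0, 143.5 and 160.7 CPM in the double knockout. The edgeR adjusted p of Rbpj was 0.0448, and it passed the threshold in 7 of 14 other settings. Of 8 antagonists of the pathway, Dtx4 and Fbxw7 rose, by 0.27 and 0.24 on the log2 scale, and the other 6 were not called. In the 14 other settings, Dtx4 was called in 6, Fbxw7 in 8, and Lfng and Maml2 in 9 each. None of the 4 Id genes, which encode inhibitors of proneural factors, was called.

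Proneural and neurogenic factors, several of them targets of Hes repression, numbered 8 in the list, of which 6 were tested, 1 rose and none fell. Insm1, which promotes the generation of basal progenitors and neurons, rose from 119.6, 119.9 and 120.5 CPM to 164.1, 160.1 and 209.0 CPM. The edgeR log2 fold change of Insm1 was 0.57 (SE 0.0946) at an adjusted p of 0.0169, and it was called in 10 of 14 other settings. Neurog1, Neurog2, Neurod1 and Neurod4 had log2 fold changes between -0.44 and -0.23 and were not called.

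Among 6 related factors outside the set, of which 4 were tested, 1 fell and none rose. Helt, which encodes a Hes-related factor known for GABAergic fate in the midbrain, fell from 5.03, 3.45 and 3.10 CPM to 0.955, 1.32 and 0.966 CPM. The groups did not overlap. By edgeR the log2 fold change of Helt was -1.84 (SE 0.230) at an adjusted p of 0.00401, and the call was kept in each of 14 other settings. Bhlhe40, Bhlhe41 and Hes7 were not called, with log2 fold changes of 0.30, 0.07 and -0.32. Hes2 and Hes3 had too few reads to be tested, with means of at most 0.146 CPM.

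Over all 70 pathway genes outside the set, 66 were tested, 14 were higher and 1, Helt, was lower, beside 1.34% of all tested genes in each direction, and the median log2 fold change was 0.08. The number of higher genes was 6, 5 and 8 without wild-type replicates 1, 2 and 3, and 6 without double knockout replicate 1. Dlk1, Dll1, Dll3, Notch1 and Notch2 were called in each of the 14 other settings.

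**Figure D5:**
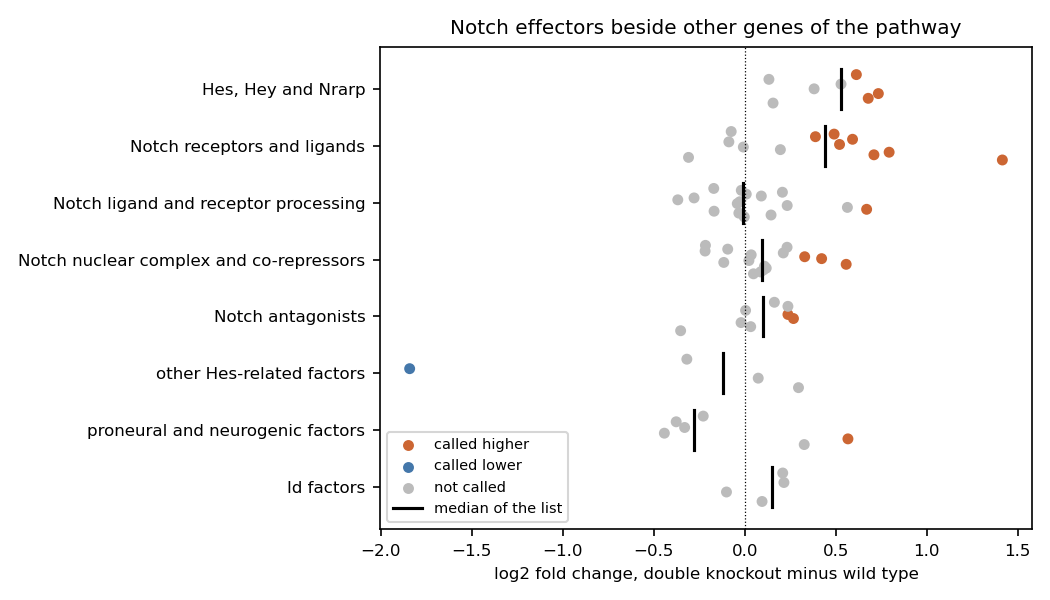
Log2 fold change (x axis, double knockout minus wild type) of every tested gene of the 7 effectors (top) and of 7 other lists of the pathway, coloured by the edgeR call, with a line at the median of each list. The medians are 0.53 for the effectors and 0.44 for receptors and ligands, against -0.01 for processing genes, and Helt is the point at -1.84.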

How the data were processed

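The authors deposited whole-number read counts per gene for 6 libraries, not normalised. Per the submitters' processing notes, reads were counted with featureCounts on build GRCm39. The aligner, annotation release and strand and multi-mapping settings are not given in the sources used here, so reads of genes that overlap on opposite strands cannot be assigned with certainty. Per the labels' protocols, libraries came from a stranded total RNA kit with ribosomal depletion. The sample titles gave the group and replicate of each library.

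Genes were filtered with filterByExpr (minimum count 10, minimum total 15), scaled by TMM and tested with edgeR 4.0.16 (quasi-likelihood, no pairing term, prior count 0.125) in R 4.3.3, over all 23628 genes with Benjamini-Hochberg adjustment. Intervals are 95% and unadjusted. A gene was called at an adjusted p under 0.05, and the test was checked on simulated data. A count of 3 corresponds to 0.0432 to 0.052 CPM, a limit that covers counting error only. Lengths and overlaps came from GENCODE M21 (GRCm38), in which 94% of identifiers were found, and promoters from a RefSeq table on GRCm38.p6. Their build is not that of the counts, so they were joined by gene only. Alternatives used DESeq2 1.42.0, limma 3.58.1, other scalings and filters, a replicate block, a Y-linked covariate and each library left out.

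The genes and lists were chosen with earlier results of these data known. Named were all 7 members, the 4 largest called genes of each pathway list, Rbpj, every listed Hes-related gene and, per member, the 2 genes most like it across libraries. Notch2, marker genes and uncalled proneural genes were added later, with values known. A few genes of the lists are not named here. The sums of marker lists and the ratios to them carry no set test.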

Additional observations from a re-analysis of the deposited data

How the results depend on the processing

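The direction of all 7 members and the calls of Hes5, Hes6 and Nrarp were kept in 14 settings, in which their highest adjusted p-values were 0.0213, 0.00302 and 0.03 in edgeR. Hey1 was called in DESeq2 (log2 fold change 0.39) and in edgeR without a filter (0.39). The number of genes called was 634 in the main test, 1162 in DESeq2, 358 with the Y-linked covariate and 275 at an adjusted p under 0.01. Leaving out 1 library gave 309 to 749. Total count scaling called 390 higher and 256 lower, against 317 each. Among the pathway genes outside the set, 14 were higher and 1 lower. There were 5 higher with the Y-linked covariate and 5 to 16 without 1 library. There were 2 lower in DESeq2, without a filter and with the replicate block, each adding Dtx1, and 1 to 2 without 1 library. The cause was not tested.

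Same-numbered libraries did not deviate together: the correlations of their deviations over all tested genes were -0.0581, 0.00225 and 0.0137. No library correlated best with its own number there. The highest values were 0.0999 for wild-type replicate 1 with double knockout replicate 2, and 0.0947 for wild-type replicate 3 with double knockout replicate 1. A block by replicate number does not model those pairs. The replicate block gave 690 calls and log2 fold changes of 0.68 for Hes5, 0.74 for Hes6, 0.61 for Nrarp and 0.37 for Hey1, and changed no member's call. For Hey2, with 128 reads in its lowest library, the spread between libraries limited what could be detected.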

Other observations

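The genes whose pattern across the 6 libraries was most like that of each member, by Pearson's r of log2 CPM among 16480 genes averaging 1 CPM or more, are given as a description. With 6 libraries in 2 genotypes, between 114 and 560 genes had an r above 0.9 with a given member, and the points share libraries and depth. For Hes6 they were Metap1d and Rorb (r 0.998 each), which rose with log2 fold changes of 0.68 and 0.60. For Nrarp they were Rreb1 and Bcan (r 0.995 each), which rose by 1.03 and 1.76 on the log2 scale. Bcan, the gene of the extracellular matrix proteoglycan brevican, went from 6.27 to 21.2 CPM. For Hes5 they were Enox2 and Ccdc8 (r 0.993 and 0.992), of which Enox2 was called higher at 0.48.

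Hey1 was most like Zfp768 (r 0.999) and Mfng (r 0.994), a glycosyltransferase gene of the Notch pathway with a log2 fold change of 0.56 that was not called. Hes1 was most like Nedd4 and Eif3m (r 0.996 each), Hey2 like Cd63 and Gm43858 (r 0.988 and 0.986), and Heyl like Dr1 and the histone gene H4c8 (r 0.993 and 0.991). None of these 6 genes was called.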
